A study of Mus musculus with 2 samples.

Results

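The genes described here encode megalin and the endocytic receptors, adaptors and chaperones related to it. The members were Lrp1, Lrp2 (megalin), Lrp8, Vldlr, Cubn (cubilin), Amn (amnionless), Dab2, Lrpap1, Sorl1 and Sort1. They were looked up by symbol, and 9 of the 10 were among the 14678 genes of the deposited table. Amn was not listed, and no value is given for it. The group was chosen by measured values of these same libraries, with the loss of Lrp2 copies in view, so the levels below are a description and carry no test.

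Megalin and cubilin are large receptors on the apical surface of absorptive epithelia. They bind vitamin carriers, hormones, lipoproteins and other secreted proteins, and clathrin-coated pits carry receptor and ligand into the cell. Megalin is best known from the kidney proximal tubule and the yolk sac, and it is also found in epithelia of the female reproductive tract. Cubilin has no cytoplasmic tail of its own and depends on amnionless and megalin, Dab2 links the tails of these receptors to clathrin, and the chaperone encoded by Lrpap1 keeps newly made receptors free of ligand in the endoplasmic reticulum.

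Uteri were collected at gestation day 2.5 (G2.5), before implantation, from mice of the strain VEGFtetO/tetO/beta-AKtg/wt. In these mice tet operator sequences stand in the promoter of Vegfa on both chromosomes, and a β-actin promoter drives the repressor tetR-Krab throughout the body. Both groups were of this genotype. The Dox+ mice ate chow with doxycycline, which keeps the repressor off the promoter, and are labelled VEGF-normal (wild type). The Dox- mice ate chow without it and are labelled VEGF-repression. The study asked which uterine transcripts change when VEGF is repressed. The RNA of 3 uteri was pooled for each condition and 1 library was sequenced from each pool. No difference in the counts below thus has a replicate library. By qPCR and Western blot the study reports lower VEGF in Dox- uteri. It also checked several other genes by qPCR, none of them a member. The repressor acts in every tissue, and the effect of doxycycline itself cannot be told apart from that of VEGF.

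Digital gene expression profiling counts short sequence tags, and the number of tags assigned to a gene is its copy number. The libraries held 5985925 clean tags in Dox+ and 5844314 in Dox-, and 74.1% and 72.2% of them were assigned to a gene of the table. Vegfa, the repressed gene (chromosome 17, 46153942 to 46169326, in NCBIM37 like all gene positions here), had 247 copies in Dox+ and 125 in Dox-, a level 1.93-fold lower in Dox- (1.55 to 2.41). All intervals are exact 95% intervals and cover counting error only. All 7 markers of uterine epithelium, all 6 of stroma and all 6 of myometrium were listed. Of the 5 markers of uterine glands 2 were, and of the 6 markers of the early embryo none was. A gene is listed with as few as 2 copies, so this is only a weak check of the uterine tissue label. The median log2 ratio of Dox- over Dox+ was 0.04 over the 6547 genes with at least 200 combined copies, with -0.75 and 0.75 as the 10th and 90th percentiles.

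Lrp2 was the most different of the members. Lrp2 was counted 534 times in Dox+ and 0 times in Dox-. Per 1000000 clean tags (TPM, as in the deposited table) this was 89.2 (81.8 to 97.1) in Dox+, while the exact interval of 0 copies in Dox- reaches 0.631. With the Dox- count set at a floor of 3 copies (0.513 TPM) the level was 174-fold lower in Dox-. With 0 taken as a true count, the exact interval of the split gives a limit of 141-fold lower. Tags seen once in a library were removed by the authors, so 0 copies means that no Lrp2 tag was seen 2 or more times. Allowing for such single tags would raise the limit of 0.631 TPM and lower that of 141-fold. In Dox+, among 14050 genes that had a tag, Lrp2 was at the 89.35 percentile, well inside the range of readily counted transcripts. Lrp2 lies on chromosome 2 (69262397 to 69424122, minus strand), and its longest annotated transcript spans 79 exons and 15460 bases, of which 13983 are coding.

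Of all listed genes, 730 had copies in Dox+ and 0 in Dox-, but nearly all of them were low in Dox+. Of the genes with at least 100 copies in Dox+, 2 had 0 in Dox-, and they were Lrp2 and Osta. No gene with at least 100 copies in Dox- had 0 in Dox+. The plot of all genes shows Lrp2 by itself at the right end of the row of genes without a Dox- copy.

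**Figure D1:**
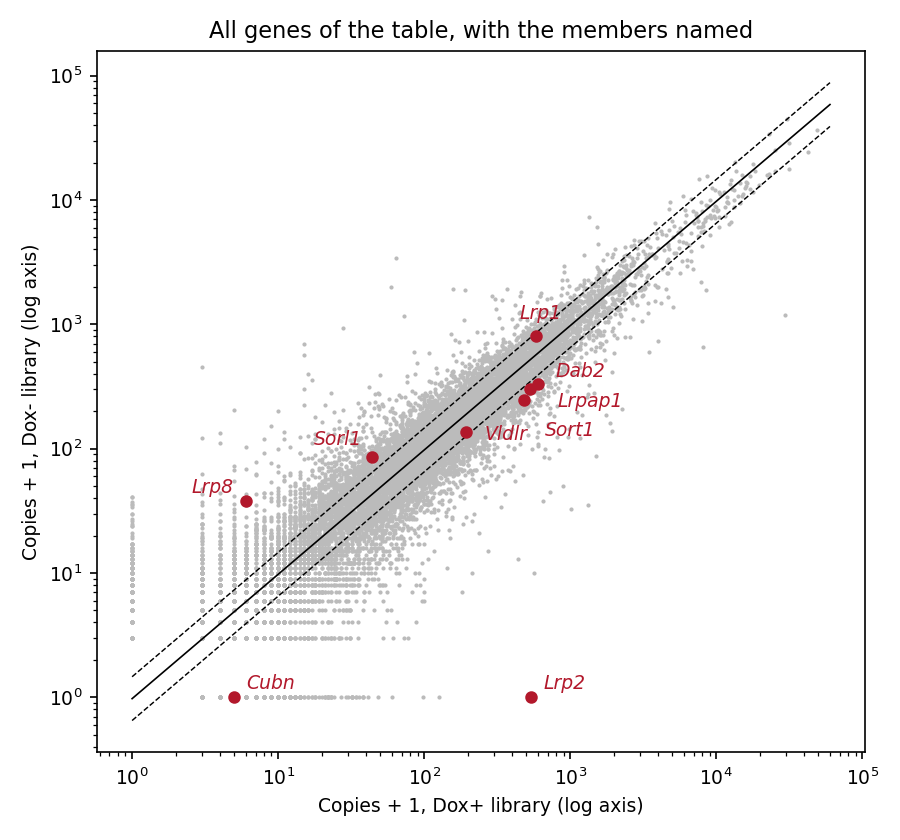
Copies plus 1 of each gene of the table in the Dox+ library (x axis, log scale) and the Dox- library (y axis, log scale). Grey points are genes and red points the 9 members. The solid line marks equal copies per clean tag and the dashed lines a 1.5-fold difference. Lrp2, with 534 copies in Dox+ and 0 in Dox-, lies at the bottom right, apart from the other genes.

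The copy number of Lrp2 in Dox+ was shared by many genes. In that library 316 genes had at least 500 and under 600 copies. Without Lrp2, their Dox- copies ranged from 9 to 1509 with a median of 512, and 2 of these 315 genes were under 100. Lrp1 and Lrpap1 belonged to the same set, with 585 and 532 copies in Dox+. The 3 members thus started from a similar count in Dox+ and had 812, 303 and 0 copies in Dox-.

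**Figure D2:**
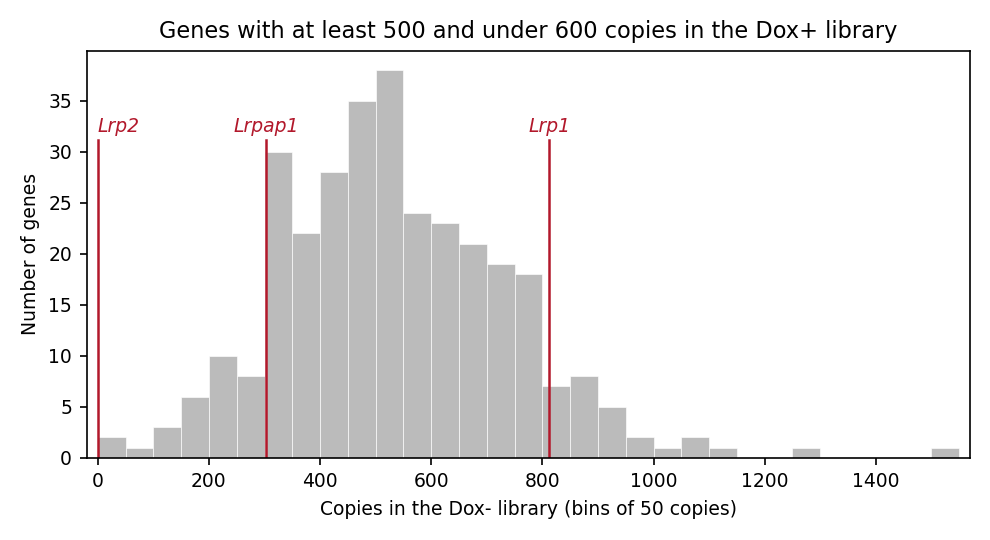
Histogram of the Dox- copies (x axis, bins of 50 copies) of the 316 genes with at least 500 and under 600 copies in Dox+, with the number of genes on the y axis. Red lines mark the 3 members in this set. Lrp2 stands at 0, Lrpap1 at 303 and Lrp1 at 812 copies, around a median of 512.

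Cubn, the partner of megalin, was close to the limit of detection. Cubn (chromosome 2, 13197965 to 13413551) had 4 copies in Dox+ and 0 in Dox-. At this depth a difference in Cubn was not detectable, and no fold is given. With Amn not listed, the receptor complex of cubilin and amnionless was not measurable in either library, and Lrp2 was the abundant part of the megalin and cubilin system in Dox+.

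Dab2 and Lrpap1, the adaptor and the chaperone of these receptors, were both lower in Dox- but remained well above the limit of detection. Dab2 (chromosome 15, 6249788 to 6390712), which binds the tail of megalin and recruits clathrin and AP-2, had 604 copies in Dox+ and 333 in Dox-. Its level was 1.77-fold lower in Dox- (1.55 to 2.03). Lrpap1 (chromosome 5, 35434139 to 35448415), the chaperone RAP, had 532 copies in Dox+ and 303 in Dox-. Its level was 1.71-fold lower in Dox- (1.49 to 1.98). The intervals of the 2 folds overlapped, and both lie far from the 141-fold limit of Lrp2.

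Lrp1, a broadly expressed receptor for protease complexes, apolipoprotein E and matrix proteins, differed in the other direction. Lrp1 (chromosome 10, 126975217 to 127058204) had 585 copies in Dox+ and 812 in Dox-. Its level was 1.42-fold higher in Dox- (1.28 to 1.58), short of the 1.5-fold threshold. Its log2 ratio of 0.51 was just past 0.5, the cutoff given in the methods of the study. Lrp1 is close to Lrp2 in size, with 89 exons and a transcript of 14888 bases, and both carry the same kinds of extracellular repeats. In Dox+ their counts differed by less than counting error allows to separate, and in Dox- Lrp1 alone was counted.

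Vldlr and Lrp8 encode the receptors best known for binding reelin, and Vldlr also takes up triglyceride-rich lipoproteins. Vldlr (chromosome 19, 27290974 to 27328721) had 192 copies in Dox+ and 135 in Dox-, 1.39-fold lower in Dox- (1.11 to 1.74). Lrp8 (chromosome 4, 107474866 to 107549445) had 5 copies in Dox+ and 37 in Dox-, 7.58-fold higher in Dox- (2.97 to 24.7). Lrp8 is the member with the largest fold in the upward direction, but it rests on 5 tags in Dox+ and lies under the filter of 200 combined copies. Even in Dox- Lrp8 reached 6.33 TPM, against 139 for Lrp1.

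The sorting receptors of the VPS10 family, Sort1 and Sorl1, move ligands between the Golgi, endosomes and the cell surface. Sort1 (chromosome 3, 108087009 to 108164429), which encodes sortilin, had 481 copies in Dox+ and 244 in Dox-, and its level was 1.93-fold lower in Dox- (1.65 to 2.26). Sorl1 (chromosome 9, 41772803 to 41932380), which encodes SorLA, a receptor with both VPS10 and LDL receptor domains, had 43 copies in Dox+ and 84 in Dox-. Its level was 2.001-fold higher in Dox- (1.37 to 2.96), under the filter on copies. The more abundant family member was thus lower in Dox- and the less abundant one higher.

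Of the 9 listed members, 6 had at least 200 combined copies. By the rule of a fold of at least 1.5, 4 were called lower in Dox- (Lrp2, Sort1, Dab2 and Lrpap1), 0 were called higher, and 2 (Lrp1 and Vldlr) were not called. Among all genes with enough copies, 29.9% were called, 14.7% lower and 15.2% higher. Since the members were selected on these values, nothing is read from their count beside this background. Lrp2 passed the filter on copies only through its Dox+ count. Lrp8, Cubn and Sorl1 were under the filter. The median log2 ratio of the 6 members was -0.80 and that of all genes 0.04. The members were selected on these values, so nothing is read from these medians either.

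**Figure D3:**
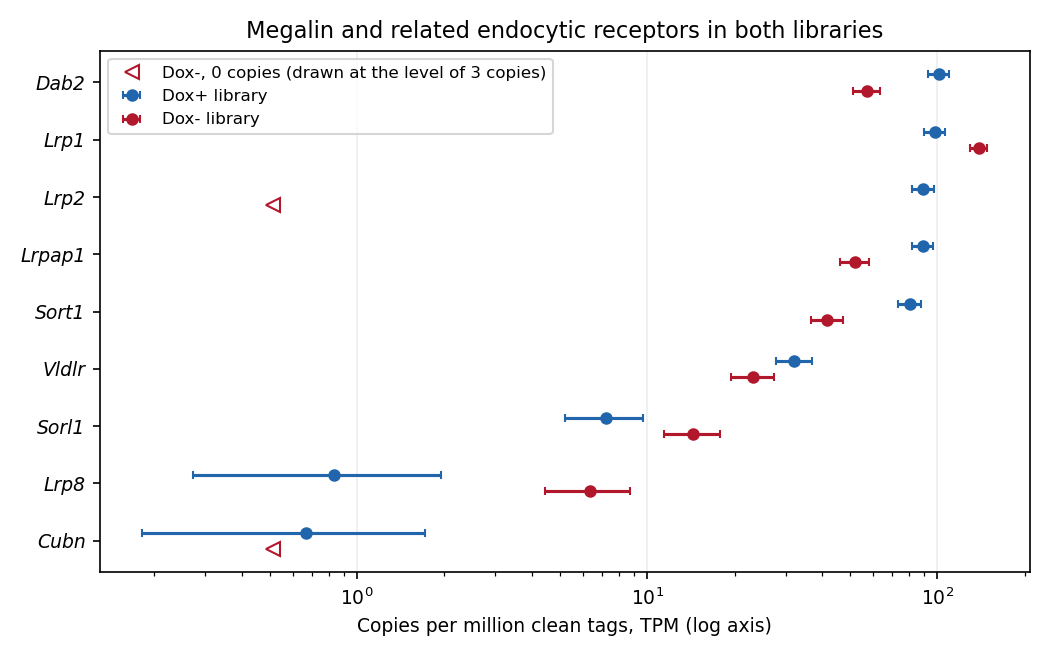
Copies per 1000000 clean tags (TPM, x axis, log scale) of the 9 listed members in the Dox+ library (blue) and the Dox- library (red), with exact 95% Poisson intervals as bars, ordered by the Dox+ level. Open triangles stand for 0 copies and are drawn at the level of 3 copies. Lrp2 has 89.2 TPM in Dox+ and an open triangle in Dox-, while Dab2, Lrpap1 and Sort1 are lower in Dox- and Lrp1 is higher.

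The order of the members differed between the libraries. In Dox+ Dab2 (101 TPM), Lrp1 (97.7), Lrp2 (89.2), Lrpap1 (88.9) and Sort1 (80.4) formed a group in which the intervals of neighbours overlapped. Vldlr (32.1) and Sorl1 (7.18) followed, each separated from its neighbours, and Lrp8 (0.835) and Cubn (0.668) were last and could not be ordered. In Dox- Lrp1 (139) stood alone at the top. Dab2 (57.0), Lrpap1 (51.85) and Sort1 (41.75) followed with overlapping neighbours, then Vldlr (23.1), Sorl1 (14.4) and Lrp8 (6.33), each apart from the next. Lrp2 and Cubn were at 0.

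The listed members together had 2980 copies in Dox+ and 1948 in Dox-, and 2446 and 1948 without Lrp2. Lrp1 held 19.6% of the summed copies in Dox+ and 41.7% in Dox-, while Lrp2 held 17.9% and 0%. A single receptor thus made up a larger share of the counted set in Dox-. Fewer cells that carry a transcript and less of it per cell cannot be told apart in RNA of a whole uterus.

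The labels mention mRNA fragmentation, which would give long transcripts more tags, while the study describes tag profiling, in which a transcript gives about 1 tag. Over 13598 genes with a tag in Dox+ and a known length, Spearman's rho between copies and transcript length was -0.06, a description across genes that are not independent replicates. On the scale of TPM per kb of transcript in Dox+, the members ranked Lrpap1 (29.7), Dab2 (21.6), Sort1 (11.8), Lrp1 (6.56), Lrp2 (5.77) and Vldlr (4.02), so that Lrp2 took rank 5 instead of rank 3. The difference of each gene between the libraries is the same on both scales.

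Promoter sequence of members was available from RefSeq (GRCm38.p6) for 9 of the 10. The 250 bases before the start of Lrp2, of its chaperone Lrpap1 and of its adaptor Dab2, all lower in Dox-, are shown with those of Lrp1, which was not. Capitals mark the GC box GGGCGG, on either strand. The CCAAT box (CCAAT), the TATA box (TATAAA) and the half-site of nuclear receptors (AGGTCA) were searched on both strands as well and were absent from these windows.
Lrp2, chr2:69586030-69586279, minus strand: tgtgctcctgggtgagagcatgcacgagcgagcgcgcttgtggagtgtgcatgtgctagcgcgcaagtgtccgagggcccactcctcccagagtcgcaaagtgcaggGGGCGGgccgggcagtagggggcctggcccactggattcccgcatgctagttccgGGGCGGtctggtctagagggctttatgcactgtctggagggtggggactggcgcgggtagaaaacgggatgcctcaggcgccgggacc
Lrpap1, chr5:35105700-35105949, minus strand: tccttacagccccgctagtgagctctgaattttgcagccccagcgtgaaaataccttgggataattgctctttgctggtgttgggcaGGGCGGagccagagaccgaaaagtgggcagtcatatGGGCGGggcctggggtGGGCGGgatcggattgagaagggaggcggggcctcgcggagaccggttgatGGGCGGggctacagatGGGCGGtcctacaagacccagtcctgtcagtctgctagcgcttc
Dab2, upstream start, chr15:6299539-6299788, plus strand: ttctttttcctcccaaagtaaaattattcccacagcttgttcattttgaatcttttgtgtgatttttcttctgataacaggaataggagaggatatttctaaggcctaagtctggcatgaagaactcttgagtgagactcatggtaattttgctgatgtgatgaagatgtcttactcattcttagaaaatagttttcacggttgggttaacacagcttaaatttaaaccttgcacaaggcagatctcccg
Dab2, downstream start, chr15:6386498-6386747, plus strand: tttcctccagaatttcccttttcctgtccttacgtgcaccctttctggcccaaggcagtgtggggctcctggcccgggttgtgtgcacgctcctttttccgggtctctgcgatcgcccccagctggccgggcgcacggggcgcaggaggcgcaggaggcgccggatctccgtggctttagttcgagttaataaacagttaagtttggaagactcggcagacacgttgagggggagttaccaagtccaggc
Lrp1, chr10:127621149-127621398, minus strand: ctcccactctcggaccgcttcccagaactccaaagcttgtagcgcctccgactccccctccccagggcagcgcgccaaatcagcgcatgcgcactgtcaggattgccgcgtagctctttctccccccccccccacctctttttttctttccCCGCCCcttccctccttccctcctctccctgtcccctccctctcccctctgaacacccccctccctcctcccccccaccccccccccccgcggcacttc

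These windows differed in composition. The window of Lrp2 had 66.4% G and C and 2 GC boxes, and that of Lrpap1 had 60.8% and 5 GC boxes. Both starts of Dab2 were without a GC box, at 36.8% and 60% G and C. The window of Lrp1 had 67.2% G and C and 1 GC box. Of all 32817 promoter windows of this length, 32.7% held a GC box, 33.8% a CCAAT box, 12.4% a TATA box and 14.03% the half-site, and the median was 52.4% G and C. A match to these letters is a description of the sequence and does not show that a factor binds there. No searched motif was present in the windows of Lrp2, Lrpap1 and Dab2 alike.

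The genes with a pattern most like that of Lrp2 were those with 3 or fewer copies in Dox- and the most copies in Dox+. They were Osta, a subunit of the organic solute transporter (126 and 0 copies in Dox+ and Dox-), Cyp1b1, a cytochrome P450 that hydroxylates estradiol (97 and 0), the RNA-binding gene Csdc2 (87 and 3), the phospholipase gene Pla2g10 (77 and 2) and Edn3, which encodes endothelin 3 (72 and 2). These 5 genes had fewer copies in Dox+ than Lrp2. Angptl7, picked out after its values were seen, had 560 copies in Dox+ and 9 in Dox- and lay outside the limit of 3 copies. The opposite pattern was led by the hair keratin gene Krt85, with 2 copies in Dox+ and 451 in Dox-. The natriuretic peptide gene Nppc (3 and 132) and the Wnt inhibitor gene Wif1 (2 and 121) followed.

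The genes on either side of Lrp2 on chromosome 2 did not share its counts. Bbs5 had 23 copies in Dox+ and 37 in Dox-, and Fastkd1 had 46 and 51. On the other side Dhrs9 had 2 and 6 copies and Abcb11 had 4 and 0, too few to compare. In GENCODE M1 no annotated gene overlapped Lrp2, Vldlr or Lrpap1, while Lrp1, Lrp8, Cubn, Dab2, Sorl1 and Sort1 each have an annotated transcript on the opposite strand that was not a gene of the table. The study reports antisense transcripts apart from sense ones. Whether the deposited copies leave antisense tags out is not given in the sources used here.

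Other members of the LDL receptor family did not share the pattern of Lrp2. Of 11 listed, 9 were in the table and 4 had enough copies, with 1 called higher, 1 called lower and a median log2 ratio of -0.01. For this list and those below, the share of all genes called was 29.9%, with 14.7% lower and 15.2% higher. The lists were chosen with earlier results known, so their counts are a description. Lrp10, a receptor of the trans-Golgi network and endosomes, had 725 copies in Dox+ and 194 in Dox- (3.65-fold lower, 3.11 to 4.30). Lrp5, a Wnt co-receptor, had 118 and 180 copies (1.56-fold higher, 1.23 to 1.99), and its partner Lrp6 had 217 and 253. Thus Lrp2 and Lrp10 were both lower in Dox-, but Lrp10 still had 33.2 TPM there. Under the filter on copies, and picked out after its values were seen, Ldlrad3 had 63 and 16 copies (3.84-fold lower, 2.19 to 7.13). The intervals of Lrp3, Lrp4, Lrp11 and Lrp12, also under the filter, included an equal level. Of the 3 other VPS10 receptors looked for, Sorcs2 was in the table, with 122 copies in Dox+ and 66 in Dox-.

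Adaptors that read the tails of these receptors, and their chaperones, showed no common direction. Of 15 listed, 14 were in the table and 7 had enough copies, with 2 called higher, 1 called lower and a median of 0.35. Myo6, the myosin that binds Dab2 and carries endocytic vesicles inward, had 444 copies in Dox+ and 224 in Dox- (1.93-fold lower, 1.64 to 2.28), beside the 1.77-fold of Dab2. Fcho2, which acts in the formation of coated pits, had 76 and 143 copies (1.93-fold higher, 1.45 to 2.58), and the adaptor Gulp1 had 76 and 140 (1.89-fold higher, 1.42 to 2.53). Snx17, which recycles Lrp1 from endosomes, had 698 and 743 copies, and Mesdc2, the chaperone of Lrp5 and Lrp6, had 346 and 430. Mesdc2 and Lrpap1, chaperones of the same receptor family, thus lay on opposite sides of an equal level.

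Most genes of the clathrin machinery, which all of these receptors use at the surface, differed by less than 1.5-fold. All 20 listed genes of the clathrin coat and AP-2 were in the table and 19 had enough copies, with 1 called higher, 2 called lower, 16 not called and a median of 0.13. Picalm, which shapes clathrin coats, had 248 copies in Dox+ and 435 in Dox- (1.80-fold higher, 1.53 to 2.11). Ap2s1, the small subunit of AP-2, had 1431 and 822 copies (1.7-fold lower, 1.56 to 1.85), and the scaffold gene Itsn1 had 215 and 103 (2.04-fold lower, 1.60 to 2.60). The clathrin light chain gene Clta had 1456 and 1842 copies, and Ap2m1, the AP-2 subunit that reads cargo signals, had 1023 and 1330. The folds of these genes were far from the 141-fold limit of Lrp2.

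Most genes of retromer and the other sorting machinery with which Sort1 and Sorl1 cycle were not called. All 21 listed genes were in the table and 20 had enough copies, with a median of 0.22. By the same rule 5 were called higher, 0 lower and 15 were not called. Of all genes with enough copies, 15.2% were called higher and 14.7% lower. Snx6, a sorting nexin of retromer, had 212 copies in Dox+ and 407 in Dox- (1.97-fold higher, 1.66 to 2.33). Ap1s1, a subunit of the Golgi adaptor AP-1, had 303 and 567 (1.92-fold higher, 1.66 to 2.21), and Gga3, which binds the tail of sortilin, had 204 and 341 (1.71-fold higher, 1.43 to 2.05). The sorting nexin genes with the most copies, Snx3 (941 and 1284) and Snx5 (919 and 1045), were not called. Sort1 differed in the other direction from these genes.

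The ligands of megalin and cubilin were mixed. Of 45 listed, 29 were in the table and 19 had enough copies, with 4 called higher, 2 called lower and a median of 0.07. Lcn2, which encodes the siderophore carrier lipocalin 2, had 27 copies in Dox+ and 935 in Dox- (35.5-fold higher, 24.2 to 54.1). A2m, which encodes the protease inhibitor alpha-2-macroglobulin, had 342 and 1579 copies (4.73-fold higher, 4.20 to 5.33), and the lysozyme gene Lyz1 had 1772 and 2718 (1.57-fold higher, 1.48 to 1.67). In Dox- the receptor megalin was not counted while the transcript of its ligand Lcn2 was at its higher level. Mt2, a metallothionein, had 8168 copies in Dox+ and 660 in Dox- (12.1-fold lower, 11.2 to 13.1), and Tcn2, the vitamin B12 carrier transcobalamin, had 330 and 160 (2.01-fold lower, 1.66 to 2.45). The most abundant genes of the list, the ferritin gene Ftl1 (10178 and 8199) and B2m (6681 and 10158, called higher), differed less.

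The ligands and partners of the other receptors had more genes called lower than higher. Of 31 listed, 28 were in the table and 15 had enough copies, with 3 called higher, 6 called lower, 6 not called and a median of -0.38. Of all genes with enough copies, 15.2% were called higher and 14.7% lower. Mdk, the growth factor midkine that binds Lrp1, had 7901 copies in Dox+ and 2204 in Dox- (3.50-fold lower, 3.34 to 3.67). Thrombospondin 1, Thbs1, had 608 and 241 copies (2.46-fold lower, 2.12 to 2.87), and the protease gene Mmp2 had 3962 and 2006 (1.93-fold lower, 1.83 to 2.04). These 3 genes were named for having the largest falls of the list, and Lrp1 itself was 1.42-fold higher and not called. Ligands of Lrp1 did not share that direction as a set. A2m, placed above among the ligands of megalin, also encodes a ligand of Lrp1 and was 4.73-fold higher in Dox- (342 and 1579 copies). Ngfr, the neurotrophin receptor that pairs with sortilin, had 626 and 1772 copies (2.90-fold higher, 2.65 to 3.18), and it lay opposite to Sort1. The chaperone gene Hspa5 (3790 and 6472, 1.75-fold higher, 1.68 to 1.82) and App, whose product is sorted by SorLA (975 and 1453, 1.53-fold higher, 1.41 to 1.66), were also called higher.

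**Figure D4:**
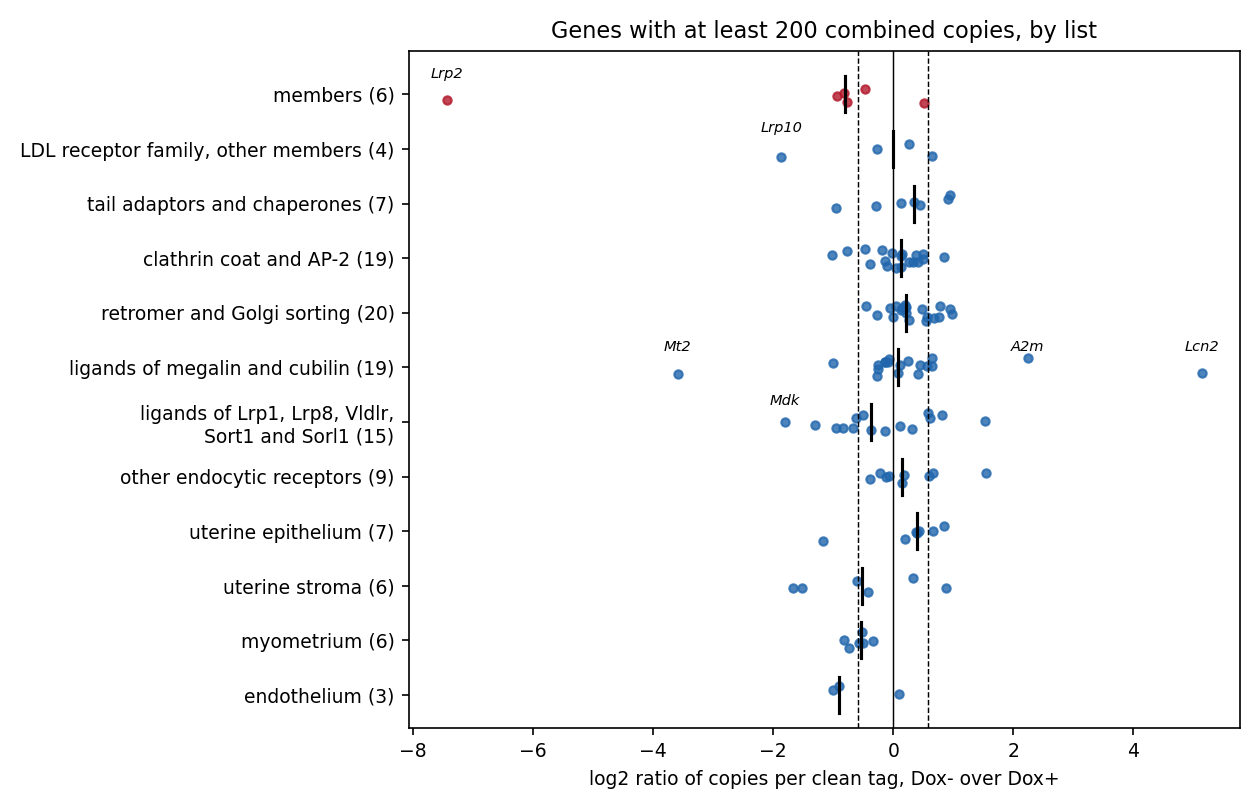
Log2 ratio of copies per clean tag, Dox- over Dox+ (x axis), of the genes with at least 200 combined copies in each list, with the number of genes in brackets. Points are genes, black bars list medians and dashed lines a 1.5-fold difference. The members (red) had a median of -0.80, with Lrp2 drawn at -7.44, its value with the Dox- count set at 3 copies. They were selected on these values, so nothing is read from their median beside those of the lists. The lists of clathrin and retromer genes had medians of 0.13 and 0.22.

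Summed markers of several cell types differed between the libraries. The 7 markers of epithelium, the site of megalin in absorptive tissues, summed to 4957 copies in Dox+ and 6300 in Dox-, with Epcam (467 and 821 copies) and Esrp1 (79 and 122) called higher and Cldn4 (149 and 65) lower. The keratin genes Krt19 (1554 and 2046) and Krt8 (1330 and 1481) had the most copies and were not called. No marker of this list was at 0 in either library. Of the 5 markers of uterine glands 2 were in the table, Foxa2 with 35 copies in Dox+ and 34 in Dox-, and Ttr, also a ligand of megalin, with 47 and 0. The gland genes Prss28, Prss29 and Spink3 were not listed.

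The markers listed for mesothelium, for oviduct and ovary and for kidney were low or lower in Dox-. The 4 markers of mesothelium summed to 426 copies in Dox+ and 181 in Dox-, led by Wt1 with 325 and 157, followed by Msln with 66 and 18. Upk1b had 30 and 4 copies (7.32-fold lower, 2.58 to 28.6), and Upk3b had 5 and 2, too few to compare. Msln was 3.58-fold lower (2.1 to 6.41). Most of this sum was Wt1, but all 4 markers had fewer copies in Dox-. Whether Wt1 came from mesothelium or from other cells of the uterus was not tested. Of 7 markers of oviduct and ovary 3 were in the table and summed to 46 and 19 copies, with the oviduct gene Ovgp1 at 25 and 2 and Star at 12 and 13. Of 6 kidney genes looked for because megalin is abundant in the proximal tubule, Aqp1 alone was in the table (974 and 320), a gene also expressed by capillary endothelium. Slc34a1, which defines the proximal tubule, was not listed, and neither was Umod, a gene of the thick ascending limb.

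Markers of the layers that form most of the uterine wall were lower in Dox- as sums, but those of stroma and endothelium did not share a direction. The 6 markers of myometrium summed to 37200 copies in Dox+ and 25324 in Dox-, with Des (4647 and 2578) and Cnn1 (4866 and 2851) called lower and the most abundant, Tagln (11417 and 8854) and Actg2 (7436 and 5086), not called. The 6 of stroma summed to 11394 and 7997. Of these, Hoxa11 (2573 and 785), Hoxa10 (3120 and 1060) and Vim (2612 and 1680) were called lower, while Lum (1549 and 2779) was called higher and Dcn (1146 and 1407) was not called. The 5 markers of endothelium summed to 977 and 637 copies, with Cdh5 (446 and 216) and Tie1 (191 and 100) called lower, Pecam1 at 243 and 253 and Kdr at 10 and 17. The 5 listed markers of macrophages summed to 357 and 425 copies, with Csf1r at 186 and 181 and Emr1 at 70 and 102. On the log2 scale the summed markers of myometrium, stroma and endothelium differed by -0.52, -0.48 and -0.58, beside -0.82 for Dab2 and -0.78 for Lrpap1. The part of all these marker differences in the results of the members was not tested.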

How the data were processed

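Uterine RNA of 1 Dox+ and 1 Dox- pool of 3 uteri (G2.5) was profiled. The authors removed adaptor-only, low quality and single-copy tags, matched the clean tags to mouse reference mRNAs (mm9) and deposited the count of unambiguous tags per gene as its copy number. The deposited TPM of a gene is its copies per 1000000 clean tags, as the authors computed it, without length correction, with 0.01 at 0 copies. The submitters' processing notes name CASAVA. The aligner and the restriction enzyme are not given in the sources used here. The table also holds the authors' own log2 ratios, ratios, P-values and FDR, which were not used.

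The clean tags of each library were solved from the rounded TPM values, which a single whole number reproduced in each library. Fold changes are ratios of copies per clean tag with exact Clopper-Pearson intervals, and levels carry exact Poisson intervals, both at 95%. A library at 3 or fewer copies was set to 3 copies. A gene was called at 200 or more combined copies and a fold of at least 1.5, with no test, since each condition had 1 library. The groups came from the sample titles. The 1 deposited table was read by 2 sample columns of copies. The intervals and calls were run on simulated counts with Poisson error only, the error that the intervals assume. This checks the calculation and says nothing of differences between animals.

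The members and lists were chosen with earlier results of these data known. The text names all members, and of each list up to 3 genes called in each direction and the 2 with the most copies, the 5 genes most like Lrp2 and the 3 most opposite, the marker genes, and Vegfa. Genes flanking Lrp2, Angptl7, Dcn, Kdr, Cd36, Pla2r1, Folr2, A2m as a ligand of Lrp1, and Ldlrad3 with the other LDL receptor genes under the filter were added after values were seen. Positions are those of GENCODE M1 on NCBIM37, which is mm9. Alternatives were other copy filters, folds, scalings (TMM of edgeR 4.0.16, median of ratios, counted tags), a pseudocount of 1, an added FDR below 0.05 by the Audic-Claverie test, and levels per kb. The work used R 4.3.3, Python 3.11.15, matplotlib 3.10.9, pandas 2.3.3, scipy 1.17.1 and numpy 2.4.6.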

Additional observations from a re-analysis of the deposited data

How the results depend on the processing

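The folds of Lrp1, Lrp8, Vldlr, Dab2, Lrpap1, Sorl1 and Sort1 kept their direction under TMM, median of ratios and counted-tag scaling and with a pseudocount of 1, and these scalings moved the median log2 ratio of all genes by at most 0.04. With the pseudocount in place of the floor of 3 copies the log2 ratio of Lrp2 was -9.03 instead of -7.44, and both values are set by how 0 copies are treated. With at least 100 combined copies 1 member was called higher (Sorl1), and without a copy filter 2 (Sorl1 and Lrp8). At an absolute log2 ratio above 0.5, the cutoff in the methods of the study, 1 was called higher (Lrp1). At a fold of at least 2 the members called fell from 4 to 1, which was Lrp2, also the 1 called lower. Over the table, 1955 genes were called, against 5699 without a copy filter (2869 higher and 2830 lower) and 670 at a fold of at least 2 (302 higher and 368 lower). At an absolute log2 ratio above 0.5 there were 2399 (1231 higher and 1168 lower). That is close to the number of regulated genes that the study reports, and Lrp1 is past this cutoff. The genes called in the context lists numbered 31, against 56 without the filter and 10 at a fold of at least 2. The rank of Lrp2 in Dox+ was 3 by TPM and 5 per kb. Adding an FDR below 0.05 by the Audic-Claverie test, which compares these libraries and not the conditions, changed no count of members or genes. In all, 80 recomputed values kept their direction, with the counts among them within 1.5 times the main count.

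No paired analysis was possible because there was 1 library per condition, and leaving out a replicate was not done for the same reason. The depth limits what can be said of Cubn, Lrp8 and Sorl1. The 0 copies in Dox-, taken as a true count, leave room for a Lrp2 level of up to 0.631 TPM. Single tags were removed and are not part of this limit. The intervals leave out differences between animals, which the pools do not show.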

Other observations

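Among endocytic receptors outside the LDL receptor and VPS10 families, most genes with enough copies were not called. Of 26 listed, 22 were in the table and 9 had enough copies. Of these, 3 were called higher, 0 lower and 6 were not called, with a median log2 ratio of 0.14. Of all genes with enough copies, 29.9% were called. The transferrin receptor gene Tfrc had 118 copies in Dox+ and 336 in Dox- (2.92-fold higher, 2.36 to 3.63). Scarb2, a lysosomal membrane receptor, had 104 and 161 copies (1.59-fold higher, 1.23 to 2.05), and the mannose receptor gene Mrc1 had 163 and 241 (1.51-fold higher, 1.24 to 1.86). Stra6, which takes up retinol from the megalin ligand retinol-binding protein, had 801 and 718 copies, and the neonatal Fc receptor gene Fcgrt, whose product handles IgG and albumin, had 594 and 641. Stra6 and Fcgrt were thus counted at similar levels in both libraries, with Lrp2 at 534 and 0 copies. Under the filter on copies, and picked out after their values were seen, the scavenger receptor gene Cd36 had 94 copies in Dox+ and 33 in Dox- (2.78-fold lower, 1.85 to 4.27), and the phospholipase receptor gene Pla2r1 had 61 and 23 (2.59-fold lower, 1.58 to 4.38).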
